A study of Mus musculus with 6 samples.

Results

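The genes described here encode enzymes and transporters that activate fatty acids, carry them into mitochondria, break them down by beta-oxidation, or build, desaturate and elongate them. The 41 genes were named from knowledge of the pathway, with earlier results of these data known. Of these, 37 had a probe with 1 gene symbol and were measured, out of 22180 genes in all. Acsl3, Cpt1b and Scd2 lay only on probes listed with several genes, and Acsl1 was not analysed here. Expression was compared between YFP-positive and YFP-negative LSK cells of the bone marrow, with 3 arrays each. LSK cells lack lineage markers and carry Sca-1 and Kit, a gate in which blood stem cells and early progenitors lie. All mice had the C57Bl6 background and carried both Tg(Cdh5-Cre/ERT2), a Cre recombinase that tamoxifen activates and that the promoter of the VE-cadherin gene Cdh5 drives, and a Rosa 26 YFP reporter. Both populations therefore came from tamoxifen-treated mice of 1 genotype. Tamoxifen was given 1, 2 and 3 days after birth, and marrow was taken at postnatal day 27, 26 days after the first dose. Every sample was treated with collagenase for 30 min at 37 °C. YFP marks cells in which Cre had acted and their descendants. A YFP-negative cell may still descend from a cell in which recombination failed. The labels do not say whether replicates were separate animals or pools, so the p-values speak only to the spread of these 6 samples, part of which may be technical.

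Fatty acids enter metabolism as acyl-CoA, made by acyl-CoA synthetases. Carnitine carries long chains across the mitochondrial membranes, and beta-oxidation then shortens them step by step to acetyl-CoA. The acyl-CoA dehydrogenases of the first step pass their electrons through the electron transfer flavoprotein to the respiratory chain. Synthesis runs in the cytosol from acetyl-CoA, which leaves mitochondria as citrate. Blood stem cells and endothelial cells are both known to use fatty acid oxidation.

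The values are log2 expression levels, and a difference is YFP-positive minus YFP-negative on that scale. Folds are computed with base 2, which was read from the range of the values. Medians over all probes lay between 3.62 and 3.68 on the 6 arrays. A level near these medians cannot be told from background, because no detection calls were used. Levels of different genes are not compared, since each rests on its own probe. The lineage driver Cdh5 was 131-fold higher in YFP-positive cells, and 14 of 16 endothelial markers passed the test in that direction. Kit averaged 6.86 and 7.76 in the YFP-positive and YFP-negative arrays, and Cd34 averaged 7.86 and 10.2, so both were above the array medians in both populations. Kit, the gate's own marker, was at the threshold (limma, adjusted p = 0.0496), and leaving out any single array ended its call. Cd34 was lower by 2.29 (limma, adjusted p = 0.00279), and its call held whichever array was left out. Of 6 listed markers of stem cells and progenitors, Kit, Cd34 and Hlf fell, 0 rose and 3 did not pass, with a median difference of -0.97. Among the YFP-positive arrays replicate 3 stood apart. The median of 12 leukocyte markers, set against the YFP-negative mean of each gene, was -2.40 in replicates 1 and 2 and 0.23 in replicate 3.

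Most genes of fatty acid oxidation and synthesis did not pass the test, and those that did were all lower in YFP-positive cells. With limma and an adjusted p of 0.05, 5 of the 37 genes fell (13.5%), against 1.96% of all genes. They were Acadm and Acads, acyl-CoA dehydrogenases for medium and short chains, Etfa and Etfb, the subunits of the electron transfer flavoprotein, and Fasn, the fatty acid synthase. None of the 37 rose in this test, against 2.88% of all genes. Before adjustment a p under 0.05 was reached by 3 higher and 6 lower genes of the 37. Over all 22180 genes it was reached by 1727 higher and 2093 lower. The model without moderated variance called 0 higher and 1 lower, against 145 and 35 over all genes. With arrays paired by replicate number, a pairing that no label states, 0 of the 37 passed. Over all genes that model called 412 higher and 168 lower. In the main test, unpaired and with moderated variance, 4.84% of all genes passed in either direction. Among the 12855 genes whose mean was above the median of all probes, 3.31% fell, and 30 of the enzyme genes were of that kind. In bulk samples like these, fewer cells of a type and less RNA per cell cannot be told apart.

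The median difference of the 37 genes was -0.19, against -0.01 over all genes. On YFP-positive replicates 1, 2 and 3 the median of the enzyme genes was -0.22, -0.16 and -0.09 against the YFP-negative means. Below 0 lay 22 of the differences and above 0 lay 15. All 3 YFP-positive arrays were below all 3 YFP-negative arrays for 8 genes (21.6%), against 11.9% of all genes, and above them for 3 genes (8.11%), against 10.8%. The 95% interval was contained between -1 and 1 for 21 of the 37. That share, 56.8%, compares with 72.7% of all genes and with 55.5% of those above the median level.

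**Figure D1:**
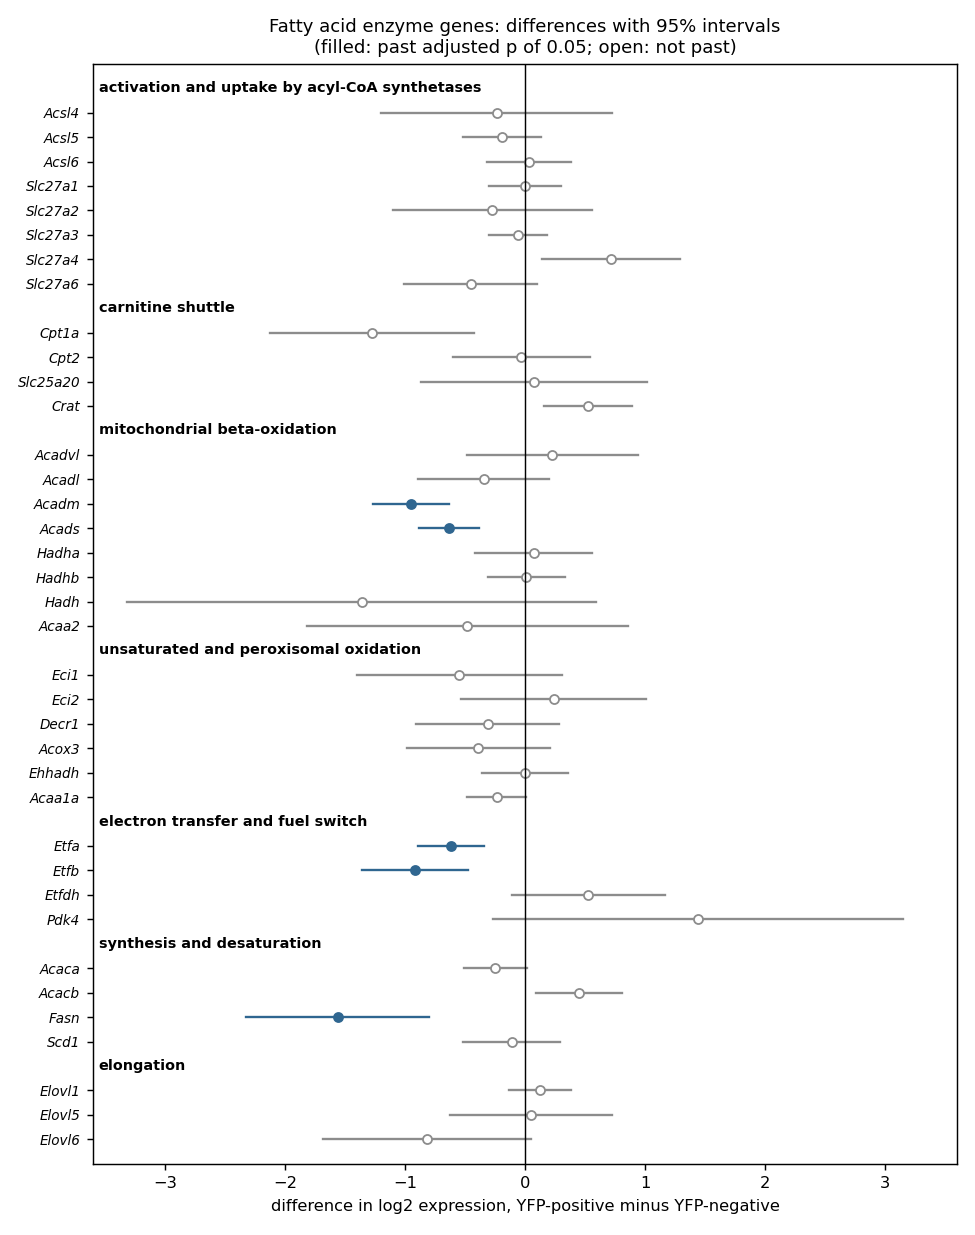
Differences of the 37 measured enzyme genes (x axis, log2, YFP-positive minus YFP-negative) with 95% intervals from limma, grouped by role; filled blue points passed an adjusted p of 0.05 and open grey points did not. The 5 filled points all lie to the left of 0, from -0.62 for Etfa to -1.56 for Fasn, and the widest interval is that of Hadh, from -3.31 to 0.59.

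Most calls of the 5 genes ended when 1 array was left out, in fits that have fewer degrees of freedom. All 5 calls also ended with arrays paired by replicate number, a pairing that no label states. Limma's adjusted p was then 0.052 for Acadm, 0.089 for Acads, 0.092 for Etfa, 0.072 for Etfb and 0.081 for Fasn. With each array left out in turn their differences ranged from -1.88 to -0.56; their sign could not turn, because the populations do not overlap for these genes. In 4 of these 6 fits none of the 37 genes passed. Acadm alone of the 5 passed without YFP-positive replicate 3, and Fasn alone of them without YFP-negative replicate 3; Cpt1a and Hadh, respectively, also passed in these fits. Without YFP-positive replicate 3, the array that stood apart in its leukocyte markers, the differences were -1.05 for Acadm, -0.62 for Acads, -0.61 for Etfa, -0.82 for Etfb and -1.61 for Fasn.

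The 250 bases upstream of the start sites of the 5 genes that fell are shown because these genes passed in 1 direction and their proximal promoters can be compared. They were taken from RefSeq windows of GRCm38.p6, which matched 32 of the 37 genes, and are written 5′ to 3′ on the strand of the gene. Capitals mark, on either strand, the CCAAT box, the GC box GGGCGG and the nuclear receptor half-site AGGTCA, so that a match on the other strand shows as the reverse complement. The E-box CACGTG was also searched.
Acadm, chr3:153944644-153944893, minus strand: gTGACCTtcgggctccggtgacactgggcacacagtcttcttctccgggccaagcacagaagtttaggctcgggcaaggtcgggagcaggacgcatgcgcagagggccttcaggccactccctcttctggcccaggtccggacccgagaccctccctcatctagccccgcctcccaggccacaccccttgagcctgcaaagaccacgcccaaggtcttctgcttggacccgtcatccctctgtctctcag
Acads, chr5:115119347-115119596, minus strand: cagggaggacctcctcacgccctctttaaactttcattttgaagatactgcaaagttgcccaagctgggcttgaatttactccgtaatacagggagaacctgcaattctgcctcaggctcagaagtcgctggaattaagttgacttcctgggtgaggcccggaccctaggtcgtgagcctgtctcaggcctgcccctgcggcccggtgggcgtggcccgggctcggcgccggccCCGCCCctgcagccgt
Etfa, chr9:55512244-55512493, minus strand: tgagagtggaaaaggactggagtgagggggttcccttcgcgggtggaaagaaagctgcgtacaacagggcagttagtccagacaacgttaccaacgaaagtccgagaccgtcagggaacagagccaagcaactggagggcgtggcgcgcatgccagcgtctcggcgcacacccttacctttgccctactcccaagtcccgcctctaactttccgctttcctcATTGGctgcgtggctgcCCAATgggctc
Etfb, chr7:43443822-43444071, plus strand: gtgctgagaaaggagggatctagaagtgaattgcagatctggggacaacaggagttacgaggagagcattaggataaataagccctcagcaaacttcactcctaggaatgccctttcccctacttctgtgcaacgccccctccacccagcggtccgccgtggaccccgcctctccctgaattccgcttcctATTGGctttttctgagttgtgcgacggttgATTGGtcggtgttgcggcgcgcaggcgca
Fasn, chr11:120824548-120824797, minus strand: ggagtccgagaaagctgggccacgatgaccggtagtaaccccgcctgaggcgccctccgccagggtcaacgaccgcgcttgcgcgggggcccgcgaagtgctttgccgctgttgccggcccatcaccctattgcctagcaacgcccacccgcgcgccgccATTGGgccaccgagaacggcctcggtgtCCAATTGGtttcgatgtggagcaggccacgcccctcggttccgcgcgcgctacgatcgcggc

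Etfa and Etfb each held CCAAT at 2 places and Fasn at 3. The Etfa matches began 28 and 11 bases upstream of the start and those of Etfb 59 and 29 bases upstream. In Fasn they began 90, 62 and 59 bases upstream, and the last pair overlapped. Acadm and Acads held no CCAAT in this window. Acads held 1 GC box, 16 bases upstream, and Acadm 1 half-site, 249 bases upstream. The windows of the measured enzyme genes numbered 37 and belonged to 32 genes, so they were not 1 per gene. CCAAT was found in 51.4% of these windows and the GC box in 64.9%, against 33.8% and 32.7% of all 32851 windows. The half-site was found in 18.9% against 14.0%, and the E-box in 5.41% against 6.02%. The set of all windows was not matched to those of the enzyme genes for G and C content or for expression. Whether these shares are particular to the enzyme genes was therefore not tested. The direct repeat bound by PPAR and RXR, in a strict and a relaxed form, and the sterol response element were found in 0 of the 37 windows. Of all windows 0.0335% and 0.122% held these forms of the repeat, and 0.0731% held the sterol response element. A match is a description of letters and not a site. Only exact letters were searched, the sterol response element in a single form of 10 letters. A lack of matches to forms this rare does not show that a site is absent.

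Among the 8 genes of mitochondrial beta-oxidation, Acadm and Acads fell and 6 did not pass. Acadm, whose enzyme oxidises medium chains, measured 7.23, 7.31 and 7.58 in YFP-positive replicates 1, 2 and 3 and 8.33, 8.25 and 8.39 in YFP-negative replicates 1, 2 and 3. Every YFP-positive array was below every YFP-negative array, and replicate 3 was the closest to them. The difference was -0.95 ± 0.13 (SE), or 1.93-fold lower (limma, adjusted p = 0.0156). It was -1.05 to -0.88 with 1 array left out at a time (adjusted p = 0.0123 to 0.0648), and the call was kept only without YFP-positive replicate 3.

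Acads, the dehydrogenase of short chains, measured 4.67, 4.55 and 4.55 in the YFP-positive and 5.26, 5.15 and 5.26 in the YFP-negative arrays. The arrays of each population lay close together, with SDs of 0.07 and 0.07 (n = 3 each), and did not overlap. The difference was -0.64 ± 0.10 (SE), or 1.55-fold lower (limma, adjusted p = 0.0246). Leaving out any single array ended the call (adjusted p = 0.0581 to 0.0972), while the difference stayed between -0.68 and -0.62.

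The dehydrogenases of longer chains did not pass. Acadl, for long chains, measured 7.29, 7.13 and 6.71 in the YFP-positive and 7.66, 7.47 and 7.04 in the YFP-negative arrays, with overlapping populations and a difference of -0.35 ± 0.22 (SE, limma adjusted p = 0.537). Acadvl, for very long chains, differed by 0.22 ± 0.29 (95% interval -0.49 to 0.94). Whether the differences of these 4 dehydrogenases differ from each other was not tested.

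Hadh, a dehydrogenase of the third step acting on shorter chains, measured 5.67, 6.12 and 6.42 in the YFP-positive and 8.57, 8.21 and 5.52 in the YFP-negative arrays. YFP-negative replicates 1 and 2 were high and replicate 3 was the lowest of all 6 arrays, so the populations overlapped. The difference was -1.36 ± 0.80 (SE, limma adjusted p = 0.487), and without YFP-negative replicate 3 it was -2.32 and passed (adjusted p = 0.0228). On YFP-negative replicates 1, 2 and 3 the median of 10 neutrophil markers, against the YFP-negative mean of each gene, was -1.18, -0.42 and 1.81. This order is opposite to that of Hadh. On YFP-positive replicates 1, 2 and 3 it was 0.3, 1.0 and 2.4, the same order as Hadh. The part of neutrophil RNA in the level of Hadh was not tested. Hadha and Hadhb encode the subunits of the trifunctional protein, which handles long chains. Their starts lie 273 bases apart on chromosome 5 in GRCm38.p6, on opposite strands, at 30154980 and 30155253. Hadha differed by 0.07 ± 0.20 (95% interval -0.41 to 0.56). Hadhb averaged 3.29 and 3.29, below the array medians, so its difference of 0.01 may be one of background. Acaa2, the thiolase, differed by -0.48 ± 0.55 with YFP-positive arrays spread from 4.85 to 7.00.

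Of the genes that pass on the electrons and switch fuel, Etfa and Etfb fell and Etfdh and Pdk4 did not pass. Etfa, the alpha subunit of the electron transfer flavoprotein, measured 7.02, 7.25 and 7.12 in the YFP-positive and 7.67, 7.82 and 7.75 in the YFP-negative arrays. The populations did not overlap. Its difference was -0.62 ± 0.11 (SE), or 1.53-fold lower (limma, adjusted p = 0.0372). Etfb, the beta subunit, measured 7.20, 7.21 and 6.92 in the YFP-positive and 8.36, 7.88 and 7.84 in the YFP-negative arrays. Again each YFP-positive array was below each YFP-negative array, of which replicate 1 was the highest. The difference was -0.92 ± 0.18 (SE), or 1.89-fold lower (limma, adjusted p = 0.0478). Leaving out any single array ended both calls, with adjusted p = 0.0657 to 0.126 for Etfa and 0.0775 to 0.113 for Etfb.

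Etfdh, which takes the electrons from the flavoprotein to ubiquinone, measured 7.43, 8.47 and 8.11 in the YFP-positive and 7.47, 7.48 and 7.48 in the YFP-negative arrays. The YFP-negative arrays were nearly equal, and YFP-positive replicate 1 lay below them while replicates 2 and 3 lay above. The difference was 0.53 ± 0.26 (SE, limma adjusted p = 0.391). Pdk4, a kinase that holds back glucose oxidation and is induced when fatty acids are burned, measured 7.16, 4.78 and 4.84 in the YFP-positive and 4.83, 3.63 and 4.00 in the YFP-negative arrays. YFP-positive replicate 1 was far above the other arrays, and replicate 2 was below YFP-negative replicate 1. The difference of 1.44 ± 0.70 (SE) did not pass (limma, adjusted p = 0.38), with a 95% interval of -0.27 to 3.15.

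**Figure D2:**
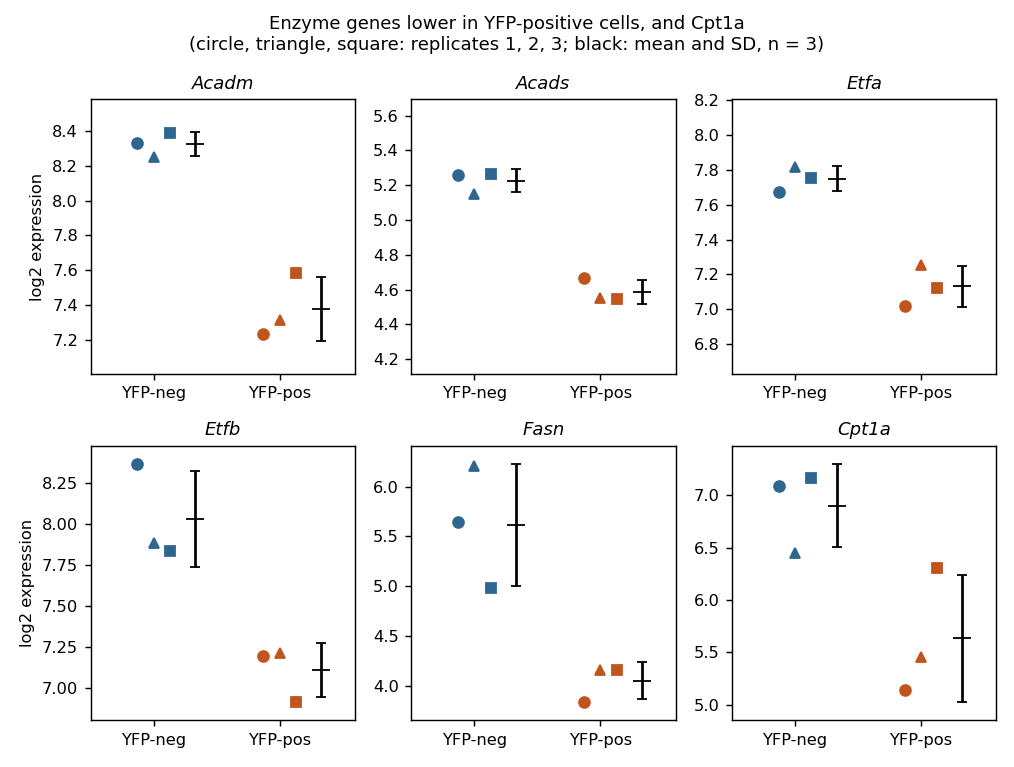
Log2 expression (y axis, each panel on its own scale that does not start at 0) of Acadm, Acads, Etfa, Etfb, Fasn and Cpt1a on the 3 YFP-negative and 3 YFP-positive arrays; black marks are the mean and SD (n = 3). The populations do not overlap in any of the 6 panels, and Cpt1a, whose YFP-positive replicate 3 at 6.30 lies just below the lowest YFP-negative array at 6.45, did not pass the test.

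In synthesis and desaturation, Fasn fell and the other 3 measured genes did not pass. Fasn, which joins malonyl-CoA units into palmitate, measured 3.84, 4.16 and 4.15 in the YFP-positive and 5.65, 6.21 and 4.98 in the YFP-negative arrays. The YFP-positive arrays were close to the median of the arrays, where a fold is uncertain, and the YFP-negative arrays were spread. The difference was -1.56 ± 0.31 (SE), or 2.95-fold lower (limma, adjusted p = 0.0493). It ranged -1.88 to -1.26 with 1 array left out at a time (adjusted p = 0.0249 to 0.149), and the call was kept only without YFP-negative replicate 3. Acaca, the acetyl-CoA carboxylase of synthesis, measured 3.27, 3.33 and 3.11 in the YFP-positive and 3.47, 3.53 and 3.44 in the YFP-negative arrays. All YFP-positive arrays were lower, but every level was under the array medians (difference -0.25 ± 0.11, SE, limma adjusted p = 0.318). Acacb, the carboxylase whose product holds back carnitine palmitoyltransferase, measured 4.32, 4.39 and 3.98 in the YFP-positive and 3.72, 3.91 and 3.72 in the YFP-negative arrays. Here all YFP-positive arrays were higher, by 0.45 ± 0.15 (SE), and the gene did not pass (limma, adjusted p = 0.184). Scd1, the stearoyl-CoA desaturase, averaged 2.79 and 2.90, which cannot be told from background.

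None of the 4 measured genes of the carnitine shuttle passed limma's test, and unadjusted p-values under 0.05 belonged to 1 higher and 1 lower gene. Cpt1a, the carnitine palmitoyltransferase that sets the rate of long-chain entry, measured 5.14, 5.45 and 6.30 in the YFP-positive and 7.09, 6.45 and 7.17 in the YFP-negative arrays. YFP-positive replicates 1 and 2 were the lowest arrays and replicate 3 approached the YFP-negative ones. The difference was -1.27 ± 0.35 (SE, 2.41-fold, limma adjusted p = 0.119). Without YFP-positive replicate 3 it was -1.61 and passed (adjusted p = 0.0357). Crat, which exchanges acetyl groups between carnitine and CoA, measured 5.32, 5.18 and 5.67 in the YFP-positive and 4.90, 4.86 and 4.85 in the YFP-negative arrays. Its YFP-positive arrays were all higher, by 0.52 ± 0.15 (SE), without passing (limma, adjusted p = 0.138). Its other probe differed by 0.57. Cpt2, the inner membrane transferase, differed by -0.03 ± 0.23 (95% interval -0.60 to 0.54). Slc25a20, the carrier of acylcarnitine, averaged 4.25 ± 0.80 and 4.17 ± 0.12 in the YFP-positive and YFP-negative populations, with YFP-positive replicate 3 at 5.17, above all other arrays.

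Of 8 measured genes that activate or take up fatty acids, 0 passed limma's test (unadjusted p under 0.05 in 1, higher; 0 with unmoderated variance). Slc27a4, a transport protein with acyl-CoA synthetase activity, measured 4.87, 5.55 and 5.52 in the YFP-positive and 4.68, 4.30 and 4.82 in the YFP-negative arrays. All YFP-positive arrays were above all YFP-negative arrays, replicate 1 by the least (difference 0.72 ± 0.24, SE, limma adjusted p = 0.187). Slc27a6 measured 2.86, 3.08 and 3.03 in the YFP-positive and 3.89, 3.40 and 3.03 in the YFP-negative arrays. These levels, like those of Slc27a2 and Slc27a3, averaged below the array medians, and the populations overlapped (difference -0.45 ± 0.23, SE, limma adjusted p = 0.399). The synthetases differed by -0.24 ± 0.40 for Acsl4, -0.19 ± 0.13 for Acsl5 and 0.03 ± 0.14 for Acsl6 (SE). Acsl4, which prefers arachidonic acid, stood at 6.37 in YFP-positive replicate 3, above every other array, and at 5.08 and 4.91 in replicates 1 and 2, below them. Acsl5, of the outer mitochondrial membrane and endoplasmic reticulum, had a 95% interval of -0.52 to 0.13. Slc27a1 averaged 3.94 and 3.94. The probes of Slc27a2 and those of Acsl6 differed in sign, at sizes of at most 0.27.

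**Figure D3:**
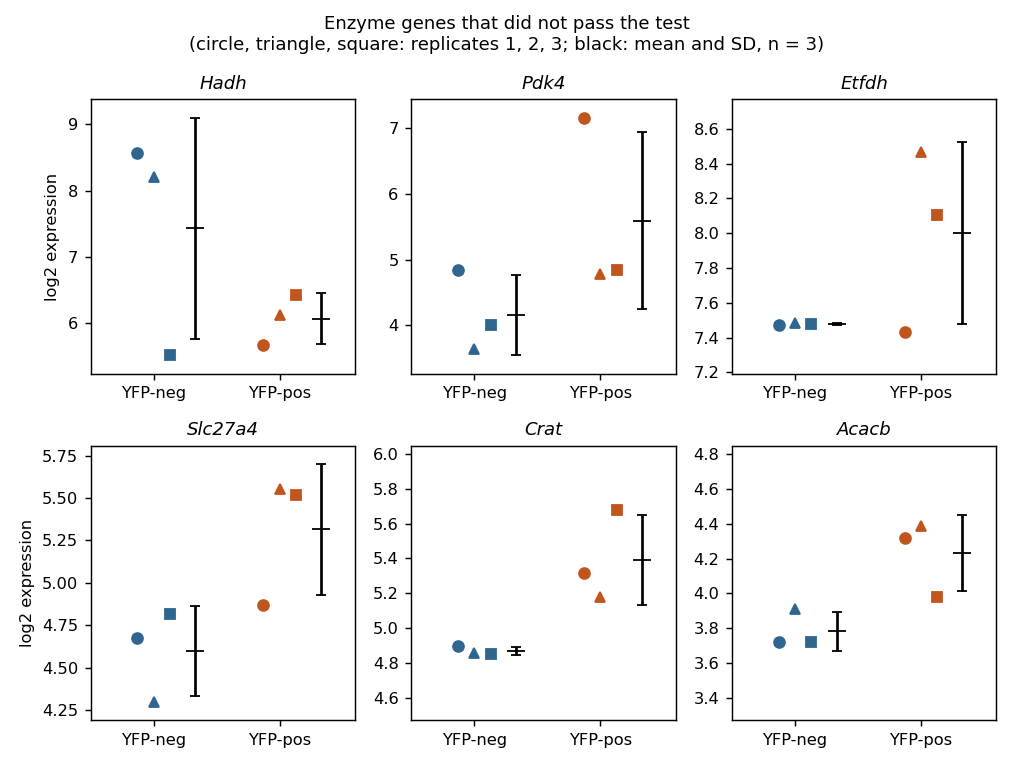
Log2 expression (y axis, each panel on its own scale that does not start at 0) of 6 enzyme genes that did not pass, on the 3 YFP-negative and 3 YFP-positive arrays; black marks are the mean and SD (n = 3). YFP-positive arrays are all higher for Slc27a4, Crat and Acacb, whereas Hadh, Pdk4 and Etfdh overlap, with YFP-negative replicate 3 of Hadh at 5.52 and YFP-positive replicate 1 of Pdk4 at 7.16.

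None of the 6 genes for unsaturated chains and peroxisomal oxidation passed limma's test (unadjusted p under 0.05 in 0; 0 with unmoderated variance). Acaa1a, a peroxisomal thiolase, measured 5.51, 5.48 and 5.49 in the YFP-positive and 5.83, 5.69 and 5.66 in the YFP-negative arrays. All YFP-positive arrays were slightly lower (difference -0.23 ± 0.10, SE, limma adjusted p = 0.314). Acox3, a peroxisomal oxidase, measured 4.51, 5.17 and 4.74 in the YFP-positive and 5.14, 4.87 and 5.57 in the YFP-negative arrays, with overlap between the populations (difference -0.39 ± 0.24, SE, limma adjusted p = 0.519). The isomerases Eci1 and Eci2 differed by -0.55 ± 0.35 and 0.24 ± 0.32, and the reductase Decr1 by -0.31 ± 0.24 (SE). Ehhadh, the peroxisomal bifunctional enzyme, averaged 2.90 in each population, below the array medians.

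The 3 measured elongases did not pass limma's test (unadjusted p under 0.05 in 0; 0 with unmoderated variance). Elovl6, which extends palmitate, measured 4.12, 4.02 and 3.61 in the YFP-positive and 4.00, 5.37 and 4.83 in the YFP-negative arrays. YFP-negative replicates 2 and 3 were above all YFP-positive arrays, but replicate 1 was not (difference -0.82 ± 0.36, SE, limma adjusted p = 0.322). Elovl1, the elongase of very long saturated chains, measured 5.63, 5.76 and 5.58 in the YFP-positive and 5.46, 5.54 and 5.60 in the YFP-negative arrays, with a 95% interval of -0.14 to 0.38. Elovl5, for polyunsaturated chains, differed by 0.05 ± 0.28 (95% interval -0.62 to 0.72).

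A list of 79 further genes of the pathway, which are not among the 41, gave 74 measured genes, of which 3 fell, 1 rose and 70 did not pass. The share that passed was 5.41%, near the 4.84% of all genes; 4.05% fell against 1.96%, and 1.35% rose against 2.88%. The median difference was -0.09. Slc25a1, the carrier that takes citrate out of mitochondria for synthesis, measured 5.83, 5.93 and 6.04 in the YFP-positive and 7.36, 7.07 and 7.11 in the YFP-negative arrays. The populations were well apart, and the gene was 2.37-fold lower (difference -1.25 ± 0.13, SE, limma adjusted p = 0.00592). This call held whichever array was left out (adjusted p = 0.0119 to 0.0287). Acss1, a mitochondrial acetyl-CoA synthetase, averaged 5.59 ± 0.56 and 7.52 ± 0.13 in the YFP-positive and YFP-negative populations (SD, n = 3 each; difference -1.94 ± 0.28, SE, limma adjusted p = 0.0196). Its call ended when YFP-positive replicate 1 or any of the YFP-negative arrays was left out (limma, adjusted p up to 0.0764). Acot1, an acyl-CoA thioesterase, averaged 5.51 ± 0.31 and 7.32 ± 0.43 in the YFP-positive and YFP-negative populations (difference -1.81 ± 0.26, SE, limma adjusted p = 0.0191). Its call ended when replicate 1 or 2 of either population was left out (limma, adjusted p up to 0.0782), and its signal may be shared with Acot2, a near-identical copy. Acot2, on its own probe, differed by -0.34 ± 0.32 (SE, limma adjusted p = 0.691), and its populations overlapped. Acly, which splits the exported citrate, differed by -0.29 ± 0.24 (SE, limma adjusted p = 0.645).

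The member of this list that rose was Pparg, a nuclear receptor that senses fatty acids, at 10.31, 10.43 and 9.79 in the YFP-positive and 2.99, 3.31 and 4.27 in the YFP-negative arrays. The YFP-negative levels were near the array medians. Its difference was 6.65 ± 0.36 (SE, limma adjusted p = 0.000558), and the call held whichever array was left out (adjusted p = 0.00101 to 0.00617). Of the other 12 regulators 0 passed limma's test (unadjusted p under 0.05 in 1, lower; 0 with unmoderated variance). Ppara, a nuclear receptor that drives oxidation genes in liver, averaged 3.36 and 3.54, under the array medians. Srebf2, a sterol-sensing activator of lipid synthesis, averaged 5.68 ± 0.79 and 7.38 ± 0.44 in the YFP-positive and YFP-negative populations (difference -1.71 ± 0.43, SE, limma adjusted p = 0.0961). Srebf1, its relative with many fatty acid synthesis targets, differed by 0.47 ± 0.21 (SE, limma adjusted p = 0.347). Without YFP-positive replicate 3, Srebf2, its escort protein Scap and Oxct1 passed as lower and Srebf1 as higher. Oxct1, which starts the use of ketone bodies, averaged 5.24 ± 0.40 and 6.51 ± 0.37 in the YFP-positive and YFP-negative populations and measured 2.4-fold lower over all 6 arrays (limma, adjusted p = 0.0598). No gene of the list's 23 measured oxidation genes passed limma's test (unadjusted p under 0.05 in 5, of which 2 were higher; 0 with unmoderated variance).

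**Figure D4:**
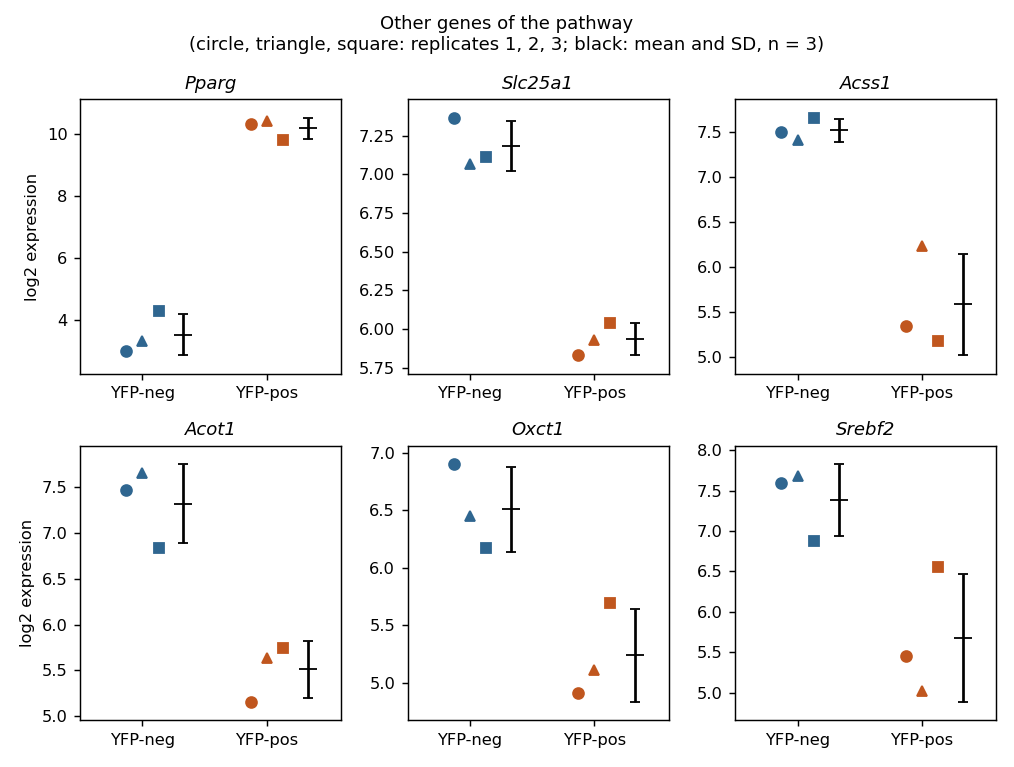
Log2 expression (y axis, each panel on its own scale that does not start at 0) of 6 other pathway genes on the 3 YFP-negative and 3 YFP-positive arrays; black marks are the mean and SD (n = 3). Pparg averages 10.18 on YFP-positive arrays against 3.52, and the populations are separate in all 6 panels, although Oxct1 and Srebf2 did not pass the test.

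Markers of other cells moved in the same comparison. The 16 endothelial markers had a median difference of 3.28, and the log2 of their summed level was 13.5 to 14.0 on YFP-positive and 9.89 to 10.6 on YFP-negative arrays. Of 12 leukocyte markers 2 fell and 0 rose, with a median of -1.53 and a log2 summed level of 10.7 to 12.9 against 12.7 to 12.8. Without YFP-positive replicate 3, 9 of the 12 fell. Of 5 measured markers of lymphoid-primed progenitors 4 fell. Of 10 neutrophil markers 0 passed limma's test (unadjusted p under 0.05 in 0), at a log2 summed level of 13.5 to 14.7 against 12.4 to 14.4. Of 9 macrophage markers 1 rose, the adhesion molecule Vcam1. Stromal, erythroid and megakaryocyte markers, 8, 4 and 3 of them, gave 0 calls in limma's test, and unadjusted p-values under 0.05 in 3, 1 and 0. The stromal markers among these were Cxcl12 and Lepr, with differences of 1.82 and 1.87, and Pdgfrb, with -0.30. For Cxcl12 and Lepr all YFP-positive arrays were above all YFP-negative arrays. The erythroid marker was Epor, with a difference of 1.37 (limma, adjusted p = 0.0517). Of 7 measured adipocyte markers 2 rose, Fabp4, which endothelium also expresses, and Lpl. The cells from which the Lpl signal came were not tested. Adipoq averaged 4.56 against 3.64 and did not pass (limma, adjusted p = 0.0658). Lep averaged 3.22 against 2.88 and Cidec 2.98 against 2.91, all below the array medians.

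The median of the 5 enzyme genes that fell, a description because they were picked by their difference and so for a small spread, was -0.83, -0.81 and -0.74 in YFP-positive replicates 1, 2 and 3, where the leukocyte median was -2.40, -2.40 and 0.23. Endothelial medians on these arrays were 3.37, 3.61 and 2.93, and lymphoid-primed medians -2.23, -2.41 and -2.12. The part of endothelial, leukocyte or lymphoid-primed RNA in the lower enzyme levels was not tested.

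**Figure D5:**
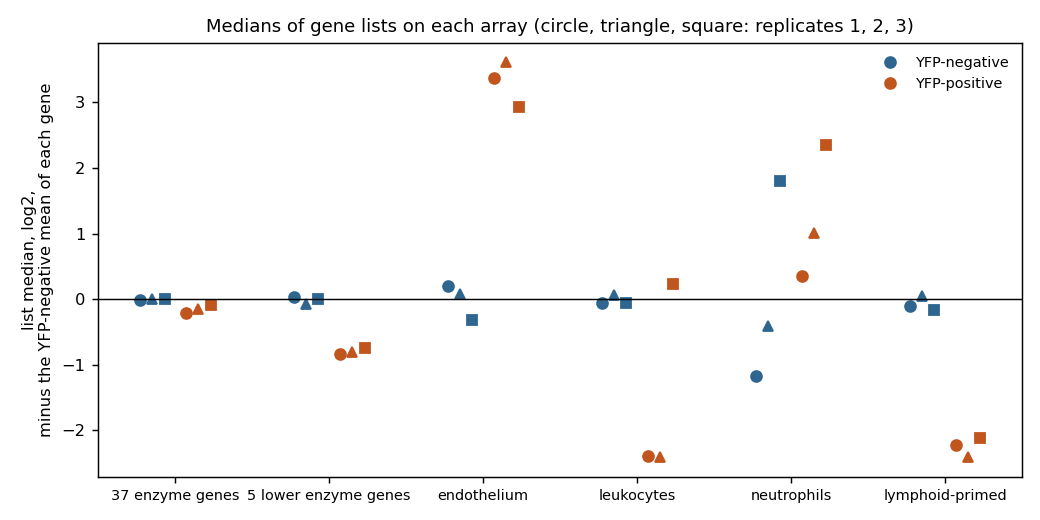
Median over each gene list of the log2 level minus that gene's YFP-negative mean (y axis), for each of the 3 YFP-negative and 3 YFP-positive arrays. The 5 lower enzyme genes, picked by their difference, lie between -0.83 and -0.74 on the YFP-positive arrays. The leukocyte median of YFP-positive replicate 3 is 0.23 and those of replicates 1 and 2 are -2.40.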

How the data were processed

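The 6 arrays of the series were used, 3 of YFP-positive and 3 of YFP-negative LSK cells. Per the labels' protocols, 500 pg of RNA was amplified per sample, and the submitters' processing notes name Partek. How background was corrected and arrays were normalized is not given in the sources used here. Values deposited by the authors are on a log scale, and base 2 (log2) was read from their range of 1.53 to 13.7 for 41345 probes. Of the probes, 23521 had 1 gene symbol, 1814 had several and 16010 were unnamed here. Each gene was represented by its probe of highest mean over the 6 arrays, which gave 22180 genes. No filter on level was used.

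The populations were compared by lmFit and eBayes of limma 3.58.1 (R 4.3.3), two-sided and with population as the sole term. P-values were adjusted by Benjamini-Hochberg across the 22180 genes, and the threshold was 0.05. The script was tested on simulated data. Members and lists were chosen with earlier results of these data known, and no list was tested as a set. Genes past the threshold are named, with the 2 of smallest p in each role group among the others and those of the further pathway list that passed; other names are given for their role or, as with Srebf1, Srebf2, Scap and Oxct1, were chosen after their values were seen because leaving out an array changed their call. Alternatives were the replicate block, each array left out, the mean of a gene's probes, unmoderated variance, an intensity trend, a filter on level, quantile normalization, median centring and array weights. The number of arrays limits the precision.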

Additional observations from a re-analysis of the deposited data

How the results depend on the processing

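Under the 14 alternatives, 35 of 511 differences of enzyme genes changed sign. These belonged to 14 genes, none of which had passed over all 6 arrays. Among the 511, 44 lost a call and 2 gained one. With the replicate block, that is pairing by replicate number, 0 enzyme genes and 1 other pathway gene fell past the threshold, and over all genes 412 were higher and 168 lower. The numbers share no stated origin: deviations of same-numbered arrays from the population means correlated over genes at 0.0985, 0.0806 and 0.167, each the highest for its number, a hint from the data and not from the design. Leaving out 1 array gave 0 to 2 enzyme genes lower, a median of the enzyme genes of -0.18 to -0.11, 1 to 6 other pathway genes lower and 1 to 2 higher, and 319 to 668 higher and 111 to 517 lower genes over all. Unmoderated variance gave 1 enzyme gene lower (Acads), 1 other pathway gene lower, and 145 higher and 35 lower genes over all. With an intensity trend 1 enzyme gene fell (Fasn). The enzyme median was -0.11 with the mean of a gene's probes and -0.12 after quantile normalization. Among genes above the median level, after quantile normalization and after median centring 4 enzyme genes fell, and with array weights 5. Fits with fewer arrays or a block have fewer degrees of freedom; for the other alternatives the cause was not tested. Of the enzyme genes, 7 averaged at or below the array medians, where a level cannot be told from background, and others lay close above them.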
